A study of Mus musculus with 7 samples.

Results

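The molecules by which leukocytes hold on to vessel walls and tissue were examined in liver neutrophils as 9 genes: the integrin alpha subunits Itgam, Itgal, Itgax and Itga4, the integrin beta subunits Itgb2 and Itgb1, the selectin ligands Selplg and Cd44, and the counter-receptor Icam1. They were taken by symbol from a deposited table of RPKM values, which are read numbers scaled for the length of the transcript and for the mapped reads of the library. All 9 were found among its 16047 genes. Neutrophils were sorted from livers of C57BL/6 mice 24 h after liver injury by acetaminophen (AILI) began, with 50000 cells per liver and 1 3′ RNA-seq library per liver. In 4 livers (PBS replicates 5 to 8) the mice had received PBS, and in 3 livers (MC-21 replicates 2 to 4) they had received 400 µL of medium with 29 µg/mL of MC-21, an antibody against CCR2, from 12 h before acetaminophen and every 24 h. Acetaminophen was given to both groups, no uninjured liver was among these libraries, and the labels call the MC-21 livers deficient for infiltrating Ly6Chi monocytes. Cells were gated as CD11b+Ly6CloCX3CR1-GFP-Ly6G+, so the protein of Itgam (CD11b) was part of the gate and the presence of Itgam RNA is not a finding. The gate names a CX3CR1-GFP reporter while the strain is given as C57BL/6 only, and whether every mouse carried the reporter is not given in the labels. The comparison asks whether adhesion genes of liver neutrophils differed when the Ly6Chi monocytes were ablated.

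Integrins are pairs of an alpha and a beta chain that bind ligands only after signals from inside the cell switch them to an open form. On neutrophils the beta chain Itgb2 (CD18) pairs with Itgal to form LFA-1, with Itgam to form Mac-1 and with Itgax to form p150,95, while Itgb1 pairs with Itga4 to form VLA-4. A neutrophil first rolls on selectins through glycoproteins such as PSGL-1 (Selplg) and CD44, then arrests and crawls through LFA-1 and Mac-1 on ICAM-1. In liver sinusoids CD44, which binds hyaluronan, and Mac-1 are known to take part in the arrest of neutrophils.

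Promoters are shown for 4 of the genes: Itgam and Itgax because they are neighbours on chromosome 7, Cd44 because it was the member furthest above its PBS level, and Icam1 because its promoter holds a rare motif. The sequences are those of RefSeq, 250 bases before and 50 after the transcription start, printed 5′ to 3′ on the strand of the gene, and each matched 1 place in mm9. Of the 9 genes, 6 had an entry, and those of Itgal, Itgb2 and Selplg were without one. Capitals mark the PU.1-type letters GAGGAAG or their reverse complement CTTCCTC in the first 3, and the kappaB-type letters GGAAATTCC in Icam1.
Itgam, chr7:135205904-135206203 (+): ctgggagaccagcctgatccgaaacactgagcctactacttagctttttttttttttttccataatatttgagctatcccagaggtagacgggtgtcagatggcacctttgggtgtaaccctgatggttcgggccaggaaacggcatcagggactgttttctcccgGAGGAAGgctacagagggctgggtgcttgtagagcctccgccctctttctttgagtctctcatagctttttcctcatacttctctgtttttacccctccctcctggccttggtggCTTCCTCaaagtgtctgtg
Itgax, chr7:135272814-135273113 (+): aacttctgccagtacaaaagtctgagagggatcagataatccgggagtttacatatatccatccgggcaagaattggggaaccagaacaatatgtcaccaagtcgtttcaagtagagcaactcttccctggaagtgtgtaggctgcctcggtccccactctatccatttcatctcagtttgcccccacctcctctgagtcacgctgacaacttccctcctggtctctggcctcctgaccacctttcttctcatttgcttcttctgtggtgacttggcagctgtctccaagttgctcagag
Cd44, chr2:102741773-102742072 (-): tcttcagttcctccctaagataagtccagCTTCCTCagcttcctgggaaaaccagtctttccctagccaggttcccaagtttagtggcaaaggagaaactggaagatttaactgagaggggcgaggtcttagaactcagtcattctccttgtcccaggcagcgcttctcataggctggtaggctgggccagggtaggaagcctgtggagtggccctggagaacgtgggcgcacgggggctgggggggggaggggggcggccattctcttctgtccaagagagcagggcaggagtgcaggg
Icam1, chr9:20820134-20820433 (+): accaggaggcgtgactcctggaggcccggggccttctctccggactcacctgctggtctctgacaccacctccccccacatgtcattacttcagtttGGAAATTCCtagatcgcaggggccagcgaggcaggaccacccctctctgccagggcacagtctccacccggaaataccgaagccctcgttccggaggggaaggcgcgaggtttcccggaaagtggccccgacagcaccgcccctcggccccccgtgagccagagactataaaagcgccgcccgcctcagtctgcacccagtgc
The Itgam promoter held 2 matches of the PU.1-type letters, the first at position -84 from the start and the second within the 50 bases after it. The Cd44 promoter held 1 at position -221. The Icam1 promoter held 1 match of the kappaB-type letters at position -153. Neither set of letters was in the promoters of Itgax, Itga4 and Itgb1. Searched on both strands, the PU.1-type letters were in 13.6% of 32851 mouse promoters of the same length and the kappaB-type letters in 0.317%. These matches are letters in a window and not sites shown to be used.

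The libraries differed in depth, 1 RPKM in a transcript of 1 kb standing for 1.59 reads in the shallowest (MC-21 replicate 3) and 3.96 in the deepest (PBS replicate 8). For the members this came to between 46.0 reads (the lowest value of Itga4) and 5384 reads (the highest of Selplg) per library, so that counting error at the lowest value was 14.7% for Itga4 and 10.7% for Itgax and under that for the other members. Differences were computed with limma on log2(RPKM + 1) as MC-21 minus PBS over the 9594 genes that averaged at least 1 RPKM, and a gene is said to have changed where its p, adjusted over all of these genes, was under 0.05. The median difference of all these genes was -0.15, with 69.4% on the lower side in MC-21 neutrophils. All 13 neutrophil markers were present, with a summed level of 18777 to 31950 RPKM in PBS neutrophils and 29020 to 42892 RPKM in MC-21 neutrophils. Most of each sum was S100a9 (12275 to 20590 RPKM in PBS and 18142 to 25041 RPKM in MC-21 neutrophils). Taken singly, 8 of these markers were higher and 5 lower in MC-21 neutrophils, and 0 had an adjusted p under 0.05 by limma. The sum over 14 monocyte and macrophage markers was 597 to 720 RPKM in PBS neutrophils and 309 to 387 RPKM in MC-21 neutrophils, and that over 9 endothelial markers was 1456 to 3078 RPKM against 1380 to 2582 RPKM. No marker of these lists that was in the table was at 0 in all 7 libraries.

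None of the 9 adhesion genes changed by limma's test, where 0.625% of all genes tested did (60 genes, 41 lower and 19 higher in MC-21 neutrophils). Itgal, the alpha chain of LFA-1, was 1.76-fold lower and Cd44 was 1.46-fold higher in MC-21 neutrophils, and these 2 were the members with an unadjusted p under 0.05, which 14.7% of all genes tested reached. An ordinary two-sample test on the same values gave 0 members at an adjusted and 1 (Itgal) at an unadjusted p under 0.05. With a cutoff of 2-fold added to the unadjusted p, which 2.7% of all genes tested passed, 0 members passed. Itgam, Selplg and Cd44 were higher and the other 6 members lower, with a median difference of -0.16. In the plot of the members by library the MC-21 libraries stood below every PBS library for Itgal only, and 13.3% of all genes tested had groups that did not overlap.

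**Figure D1:**
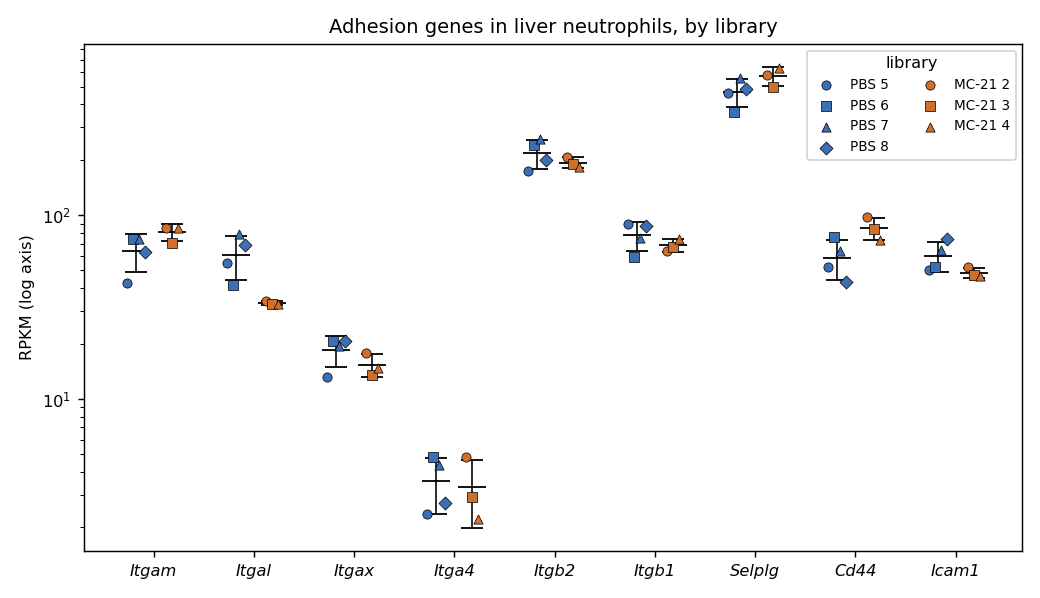
RPKM of the 9 adhesion genes in each of the 7 libraries, on a log axis. Points are libraries (blue for PBS replicates 5 to 8, orange for MC-21 replicates 2 to 4), and bars give the mean and SD of each group. The 3 MC-21 libraries lie between 32.7 and 34.1 RPKM for Itgal, below the lowest PBS library at 41.5 RPKM, while the groups overlap for the other 8 genes.

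Among the alpha subunits, Itgal had 54.9, 41.5, 79.2 and 68.6 RPKM in PBS replicates 5 to 8 and 34.1, 32.7 and 32.8 RPKM in MC-21 replicates 2 to 4. The MC-21 libraries lay close together and all under the lowest PBS library, PBS replicate 6, while the PBS libraries spread over a range wider than the gap. The means were 61.0 ± 16.4 RPKM (SD, n = 4) and 33.2 ± 0.787 RPKM (SD, n = 3). The log2 fold change was -0.82 (standard error 0.21, 95% interval -1.29 to -0.34, adjusted p = 0.139 by limma), or -0.67 relative to the median of all genes. Without PBS replicate 6 it was -0.99 with an adjusted p of 0.0438, and over all alternatives the adjusted p ran from 0.0438 to 0.401. Itgal lies at chr7:134439774-134478651 on the plus strand of mm9. Monocytes and lymphocytes carry LFA-1 too, and the sums of their markers were lower in MC-21 neutrophils, at 309 to 387 RPKM against 597 to 720 RPKM for monocytes and macrophages and 13.6 to 17.5 RPKM against 21.2 to 42.6 RPKM for 10 lymphocyte markers. Of the lymphocyte markers, Cd79b had the highest mean, with 8.41 to 21.5 RPKM in PBS and 5.10 to 8.18 RPKM in MC-21 neutrophils. Nkg7 came next and overlapped, with 2.79 to 7.76 RPKM and 1.38 to 9.27 RPKM. All 6 lymphocyte markers tested were lower, and 0 had an adjusted p under 0.05 by limma. The part of monocytes, macrophages and lymphocytes in the level of Itgal was not tested. In sorted cells measured in bulk, fewer cells of a type and less RNA per cell cannot be told apart.

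Itgam, which encodes the CD11b chain of Mac-1, had 42.9, 74.3, 74.4 and 63.3 RPKM in PBS replicates 5 to 8 and 85.4, 70.6 and 85.5 RPKM in MC-21 replicates 2 to 4. MC-21 replicates 2 and 4 were the highest of all, and MC-21 replicate 3 fell within the PBS range. The means were 63.7 ± 14.8 RPKM (SD, n = 4) and 80.5 ± 8.59 RPKM (SD, n = 3). The log2 fold change was 0.36 (standard error 0.21, 95% interval -0.10 to 0.82, adjusted p = 0.457 by limma), or 0.50 relative to the median of all genes. The gene lies at chr7:135206154-135271674 on the plus strand.

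Itgax, the CD11c chain, lies 1386 bases further along the same strand, at chr7:135273061-135294171. It had 13.2, 20.6, 19.5 and 20.6 RPKM in PBS replicates 5 to 8 and 17.9, 13.6 and 14.7 RPKM in MC-21 replicates 2 to 4. PBS replicate 5 was the lowest of all libraries for Itgax, as it was for Itgam, while the other 3 PBS libraries lay above the MC-21 libraries. Itgax differed by -0.24 on the log2 scale (standard error 0.20, 95% interval -0.68 to 0.20, adjusted p = 0.623 by limma). Itgam had 70.9 RPKM and Itgax 17.1 RPKM as means over the 7 libraries.

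Itga4, the alpha chain of VLA-4, was the lowest member, with 2.35, 4.83, 4.36 and 2.72 RPKM in PBS replicates 5 to 8 and 4.84, 2.94 and 2.23 RPKM in MC-21 replicates 2 to 4. Both groups held high and low libraries, and the highest and the lowest were both MC-21 libraries. Its log2 fold change was -0.08 (standard error 0.28, 95% interval -0.71 to 0.55, adjusted p = 0.918 by limma), the widest interval among the members, and its sign depended on the scaling (0.10 with quantile normalization). Itga4 lies at chr2:79095583-79173280 on the plus strand.

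**Figure D2:**
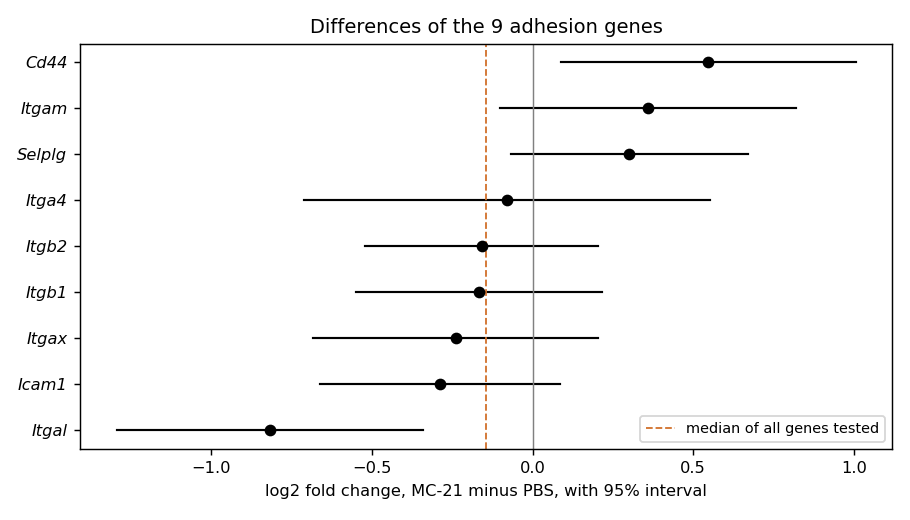
Differences of the 9 adhesion genes between the groups, as log2 fold changes (MC-21 minus PBS) on log2(RPKM + 1) with 95% intervals from limma. Points are genes, and the dashed line marks the median of all genes tested, -0.15. The intervals of Cd44 and Itgal leave out 0, and those of the other 7 genes include it. The sign of Itga4 turned with either rescaling and that of Itgb2 with centring on the library median.

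The RNA of the 3 alpha chains was also set against that of Itgb2 within each library, as a difference of log2(RPKM + 1) and as a description with no test. Itgam stood below Itgb2 by a difference of -1.99, -1.67, -1.80 and -1.63 in PBS replicates 5 to 8 and of -1.27, -1.41 and -1.08 in MC-21 replicates 2 to 4. Relative to Itgb2, therefore, Itgam was higher in all 3 MC-21 libraries than in any PBS library, by 0.52 between the group means. How many other gene pairs separate the groups in this way was not computed. For Itgal the difference from Itgb2 was -1.64, -2.50, -1.71 and -1.52 in the PBS libraries and -2.57, -2.50 and -2.44 in the MC-21 libraries, and PBS replicate 6 lay among the MC-21 libraries. Itgax against Itgb2 differed by -0.08 between the group means, and Itga4 against Itgb1 by 0.09.

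Itgam and Itgal were then compared directly, a pair chosen after their values were seen. In the summed RPKM of Itgam, Itgal and Itgax, Itgam made up 38.7, 54.5, 43.0 and 41.5% in PBS replicates 5 to 8 and 62.2, 60.4 and 64.3% in MC-21 replicates 2 to 4. Itgal made up 49.4, 30.4, 45.7 and 45.0% in the PBS libraries and 24.8, 28.0 and 24.7% in the MC-21 libraries. Neither share overlapped between the groups, and PBS replicate 6 came nearest to the MC-21 libraries in both. Both are shares of the same sum, so a higher share of 1 gene lowers the other. Itgal alone already separated the groups. How many other gene pairs separate the groups was not computed. The mean share of Itgam was 44.4 ± 6.95% (SD, n = 4) in PBS neutrophils and 62.3 ± 1.95% (SD, n = 3) in MC-21 neutrophils, and that of Itgal 42.6 ± 8.38% (SD, n = 4) and 25.8 ± 1.86% (SD, n = 3). The share of Itgax overlapped, with means of 12.9 ± 1.71% (SD, n = 4) and 11.9 ± 1.02% (SD, n = 3). The sum of the 3 was 111 to 173 RPKM in PBS and 117 to 137 RPKM in MC-21 neutrophils, so the groups overlapped in the sum. As log2(RPKM + 1), Itgam minus Itgal was -0.35, 0.83, -0.09 and -0.11 in the PBS libraries and 1.30, 1.09 and 1.35 in the MC-21 libraries.

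**Figure D3:**
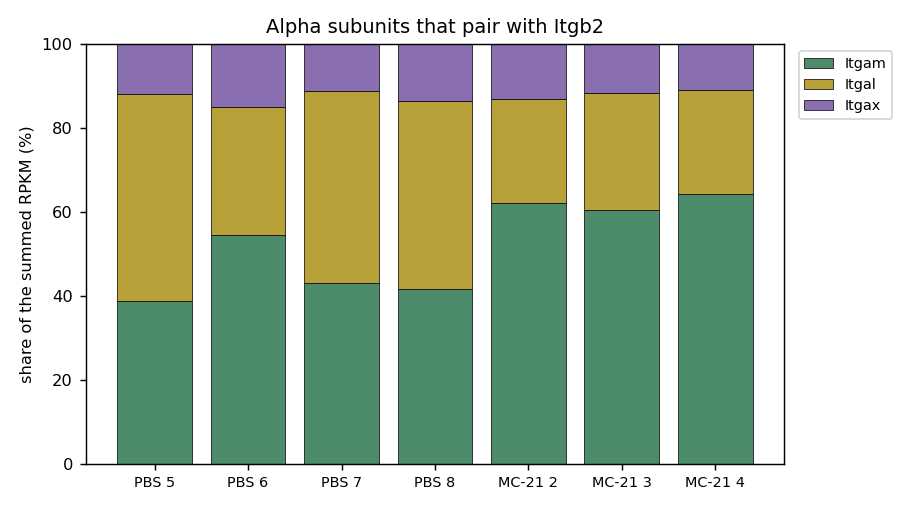
Share (%) of Itgam, Itgal and Itgax in their summed RPKM, 1 bar per library. Itgam holds 60.4 to 64.3% in the 3 MC-21 libraries and 38.7 to 54.5% in the 4 PBS libraries, and the share of Itgax overlaps between the groups. The comparison was chosen after the values were seen and has no test.

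For both beta subunits the interval of the difference included 0. Itgb2, at chr10:76992997-77028453 on the plus strand, had 173, 239, 261 and 199 RPKM in PBS replicates 5 to 8 and 207, 189 and 182 RPKM in MC-21 replicates 2 to 4. All 3 MC-21 libraries lay within the PBS range. The log2 fold change was -0.16 (standard error 0.16, 95% interval -0.52 to 0.20, adjusted p = 0.691 by limma), near the median of all genes, and it was 0.00 after centring on the library medians.

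Itgb1, which besides VLA-4 serves receptors for collagen, laminin and fibronectin, had 89.0, 59.4, 74.7 and 87.8 RPKM in PBS replicates 5 to 8 and 63.6, 67.1 and 74.4 RPKM in MC-21 replicates 2 to 4. The MC-21 libraries again lay inside the PBS range, whose lowest library was PBS replicate 6. Itgb1 differed by -0.17 on the log2 scale (standard error 0.17, 95% interval -0.55 to 0.21, adjusted p = 0.691 by limma). The gene lies at chr8:131209554-131257100 on the plus strand. Endothelial cells express Itgb1 too. The sums of the endothelial markers, 3078, 2038, 1456 and 2674 RPKM in the PBS libraries and 1571, 2582 and 1380 RPKM in the MC-21 libraries, overlapped between the groups. Clec4g was the largest part of each sum (474 to 1509 RPKM in PBS and 583 to 1539 RPKM in MC-21 neutrophils). Taken singly, 8 of the 9 markers were lower in MC-21 neutrophils, where 69.4% of all genes tested were. Their median difference was -0.40, against -0.15 for all genes, and none had an adjusted p under 0.05 by limma. The part of endothelial RNA in Itgb1 was not tested.

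Of the selectin ligands, Cd44 had 52.0, 76.3, 63.6 and 43.3 RPKM in PBS replicates 5 to 8 and 97.4, 84.4 and 73.3 RPKM in MC-21 replicates 2 to 4. The groups overlapped through a single library, PBS replicate 6, which lay above MC-21 replicate 4. The means were 58.8 ± 14.3 RPKM (SD, n = 4) and 85.01 ± 12.1 RPKM (SD, n = 3). The log2 fold change was 0.55 (standard error 0.20, 95% interval 0.09 to 1.00, adjusted p = 0.274 by limma), or 0.69 relative to the median of all genes. Cd44 lies at chr2:102651298-102741822 on the minus strand, where the annotation lists 14 transcripts, and the deposited value does not separate them.

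Selplg, which encodes the rolling ligand of P-selectin, was the highest member, with 460, 363, 558 and 487 RPKM in PBS replicates 5 to 8 and 579, 499.7 and 635 RPKM in MC-21 replicates 2 to 4. MC-21 replicates 2 and 4 were the highest libraries and MC-21 replicate 3 fell between PBS replicates 8 and 7. The means were 467 ± 80.6 RPKM (SD, n = 4) and 571 ± 68.2 RPKM (SD, n = 3), and the log2 fold change was 0.30 (standard error 0.16, 95% interval -0.07 to 0.67, adjusted p = 0.435 by limma), or 0.45 relative to the median of all genes. Selplg lies at chr5:114267807-114280510 on the minus strand.

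Icam1, the ligand of LFA-1 and Mac-1, is best known from endothelium but is also made by activated neutrophils. It had 50.5, 52.1, 64.5 and 73.8 RPKM in PBS replicates 5 to 8 and 51.9, 47.1 and 46.7 RPKM in MC-21 replicates 2 to 4. PBS replicates 7 and 8 were the highest, and PBS replicate 5 lay below MC-21 replicate 2, so the groups overlapped. Icam1 differed by -0.29 on the log2 scale (standard error 0.17, 95% interval -0.66 to 0.08, adjusted p = 0.460 by limma). Icam1 lies at chr9:20820404-20833241 on the plus strand and has 1 annotated transcript. PBS replicate 5, with the highest endothelial marker sum (3078 RPKM), had the lowest Icam1 of the PBS libraries, while PBS replicate 8, with the next highest sum (2674 RPKM), had the highest Icam1 of all libraries. The part of endothelial RNA in Icam1 was not tested.

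By mean level over the 7 libraries the order was Selplg (512 RPKM), Itgb2 (207), Itgb1 (73.7), Itgam (70.9), Cd44 (70.0), Icam1 (55.2), Itgal (49.1), Itgax (17.1) and Itga4 (3.47). Selplg stood above Itgb2, Itgb2 above Itgb1, Itgal above Itgax and Itgax above Itga4 in 7 of 7 libraries. Itgb1, Itgam and Cd44 were not separated, Itgb1 being above Itgam in 3 libraries, all PBS, and Itgam above Cd44 in 3, and Cd44 was above Icam1 and Icam1 above Itgal in 5. Itgam was above Itgb1 in all 3 MC-21 libraries. By group mean Cd44 (58.8 RPKM) came below Itgal (61.0) and Icam1 (60.2) in PBS neutrophils and next after Itgb2, at 85.01 RPKM, in MC-21 neutrophils. The reads came from the 3′ ends of transcripts and do not grow with transcript length, whereas RPKM divides by it. When RPKM was multiplied by the length of the transcript, Selplg and Itgb2 stayed first and second and Itgax and Itga4 last, and 5 of the 9 genes kept their place. Cd44 then came before Itgam and Itgb1, and Itgal passed above Icam1 in all 7 libraries. Levels of Itgb2 were at the 96.1 percentile of all genes tested and those of Itga4 at the 28.8 percentile.

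The members did not vary together as a set over the libraries, although some pairs did. Pearson's r of log2(RPKM + 1) between members, over 7 libraries that include both groups, ran from -0.88 (Itgb1 with Cd44) to 0.85 (Itgal with Icam1). Among genes that averaged 10 RPKM or more, the 2 nearest in pattern were Chmp4b (r = 0.98) and Zfand3 (0.97) for Itgam, Hmgb2 (0.97) and Uqcrc1 (0.97) for Itgal, Lap3 (0.98) and Sash3 (0.97) for Itgax, and Rap1a (0.98) and Rybp (0.98) for Itga4. They were Otulin (0.97) and Tgfbi (0.96) for Itgb2, Cct7 (0.99) and Epb41l2 (0.99) for Itgb1, Mbd2 (0.997) and Snai1 (0.91) for Selplg, Fcgr3 (0.97) and Arrdc4 (0.97) for Cd44, and Ubap2l (0.98) and Gpank1 (0.97) for Icam1. These r values describe 7 points in genes picked from a large table and carry no p.

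Rap1a, the gene nearest to Itga4, encodes a small GTPase that switches integrins on. It had 7.65, 24.7, 23.2 and 9.03 RPKM in PBS replicates 5 to 8 and 30.3, 8.43 and 5.12 RPKM in MC-21 replicates 2 to 4. PBS replicates 6 and 7 and MC-21 replicate 2 were the 3 highest libraries for Itga4 and Rap1a. Rap1a was picked for its r with Itga4 over these same libraries, so this sharing follows from the choice. The related GTPase Rap1b, chosen after its values were seen, had 13.3, 44.8, 75.3 and 16.9 RPKM in the PBS libraries and 40.6, 14.9 and 13.6 RPKM in the MC-21 libraries, with the same 3 libraries highest. PBS replicates 6 and 7 and MC-21 replicate 2 were also the highest in Itgb2, although by a small margin in MC-21 replicate 2. Itgb2 was the member with the highest r with Itga4 (0.82). The r of the other members with Itga4 ran from -0.72 (Itgb1) to 0.66 (Itgax). In Itga4, Itgb2, Rap1a and Rap1b this division of the libraries runs across the groups, and the spread it gives enters their standard errors.

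**Figure D4:**
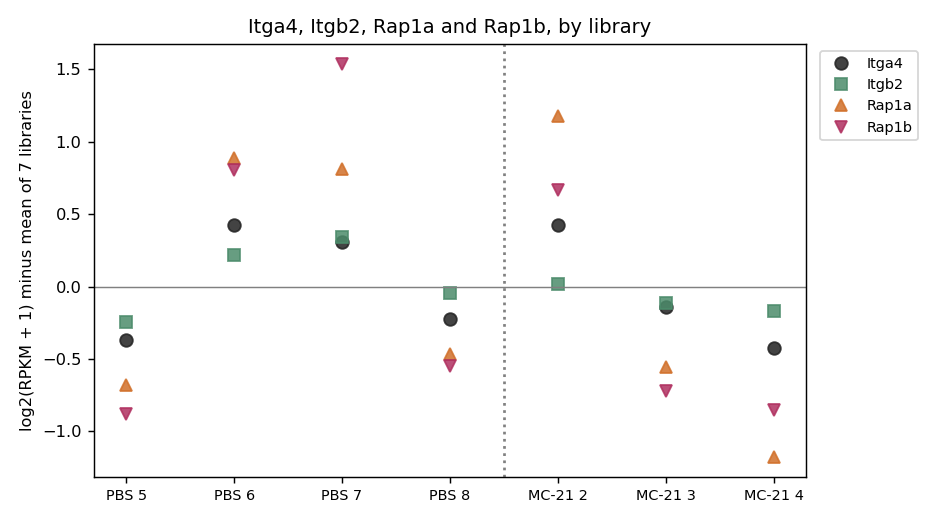
Itga4, Itgb2, Rap1a and Rap1b in each library, as log2(RPKM + 1) minus the gene's mean over the 7 libraries. Points are genes, and the dotted line separates PBS replicates 5 to 8 from MC-21 replicates 2 to 4. PBS replicates 6 and 7 and MC-21 replicate 2 lie above 0 for all 4 genes, and the other 4 libraries lie below it. Rap1a was picked for its r with Itga4, Rap1b was chosen after its values were seen, and Itgb2 is the member most like Itga4. Itga4 and Itgb2 change the sign of their group difference with the scaling, as given in the text.

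The wider adhesion machinery was described from lists of 95 other genes, of which 93 were in the table and 77 were tested. Of these 77, 2 changed, Cd177 upward and Itgb5 downward, 34 were higher and 43 lower in MC-21 neutrophils, and the median difference was -0.08. An unadjusted p under 0.05 was reached by 14 of them (4 higher and 10 lower), and the groups did not overlap in 13. Over all genes tested the same rules took 0.625% (adjusted p), 14.7% (unadjusted p) and 13.3% (no overlap), and the counts of the single lists are to be read against these shares.

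Cd177, a glycoprotein of the neutrophil surface that binds PECAM-1 and associates with Mac-1, was listed with the immunoglobulin family receptors although it belongs to the Ly6 family. It had 11.8, 7.36, 18.7 and 8.65 RPKM in PBS replicates 5 to 8 and 42.7, 29.9 and 39.0 RPKM in MC-21 replicates 2 to 4. The lowest MC-21 library was above the highest PBS library. Cd177 had a log2 fold change of 1.66 (standard error 0.29, 95% interval 1.02 to 2.30, adjusted p = 0.0415 by limma). Itgb5, a beta chain that pairs with Itgav, had 5.73, 4.39, 12.4 and 10.2 RPKM in the PBS libraries and 1.79, 0.957 and 1.64 RPKM in the MC-21 libraries, again without overlap. Its log2 fold change was -1.82 (standard error 0.32, 95% interval -2.55 to -1.09, adjusted p = 0.0459 by limma). Both calls were lost with an ordinary test, without a trend in the variance, without a filter on low values, and when PBS replicate 5, PBS replicate 8 or any 1 MC-21 library was left out, and that of Itgb5 also with either rescaling and without PBS replicate 7. Macrophages express Itgb5, and 13 of the 14 monocyte and macrophage markers were lower in MC-21 neutrophils, 6 of them (Ccr2, C1qa, C1qb, C1qc, F13a1 and Fcgr1) with an adjusted p under 0.05. The part of such cells in Itgb5 was not tested.

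**Figure D5:**
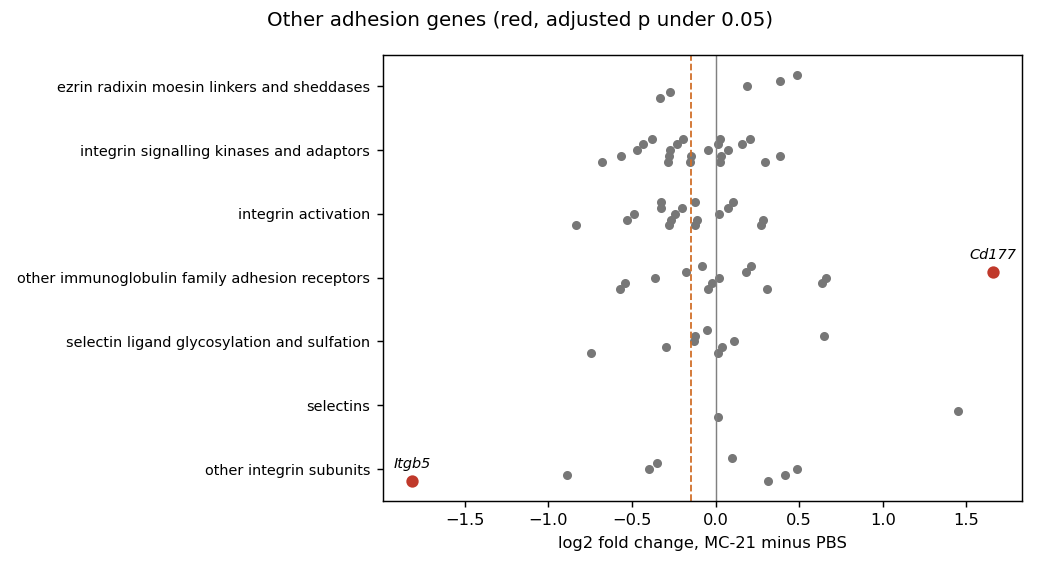
Log2 fold changes (MC-21 minus PBS) of the 77 other adhesion genes tested, by list. Points are genes, red where the adjusted p by limma was under 0.05, and the dashed line is the median of all genes, -0.15. Cd177 at 1.66 and Itgb5 at -1.82 lie furthest from 0, and most other genes lie near the line. The call of Itgb5 was lost and that of Cd177 kept under either rescaling.

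Of the 8 other integrin subunits tested, Itgb5 alone changed by limma. Itga6, a laminin receptor chain of platelets and other cells, averaged 6.21 ± 1.78 RPKM (SD, n = 4) in the PBS and 2.89 ± 0.940 RPKM (SD, n = 3) in the MC-21 group and differed by -0.89 on the log2 scale (adjusted p = 0.165 by limma). Among these other subunits, Itga9 (10.7 to 17.8 RPKM in PBS and 13.9 to 15.9 RPKM in MC-21 neutrophils) and Itgb3 (6.96 to 24.8 and 13.4 to 23.0 RPKM) had the most RNA. Both averaged more than the member Itga4. Sums of 5 platelet markers were 86.4 to 254 RPKM in PBS neutrophils and 44.7 to 70.6 RPKM in MC-21 neutrophils, and most of each sum was Pf4 (75.0 to 244 RPKM against 36.7 to 60.9 RPKM). Ppbp, Gp9, Gp1bb and Gp1ba overlapped between the groups, Gp9 with a higher mean in MC-21 neutrophils (3.80 RPKM against 2.28 RPKM). Itga2b, another of these subunits and chosen after its values were seen, had 2.30 to 3.26 RPKM in PBS and 3.56 to 4.32 RPKM in MC-21 neutrophils. It was 0.42 higher on the log2 scale (adjusted p = 0.362 by limma). Its groups did not overlap, as in 13.3% of all genes tested. The part of platelets in Itga6, Itgb3 and Itga2b was not tested.

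Of the selectins, Selp (P-selectin, of platelets and endothelium) had 3.37 to 21.9 RPKM in PBS neutrophils and 21.9 to 37.2 RPKM in MC-21 neutrophils, 1.45 higher on the log2 scale (standard error 0.47, adjusted p = 0.218 by limma). The endothelial marker sums overlapped between the groups, although 8 of the 9 endothelial markers were lower in MC-21 neutrophils. Each platelet marker other than Pf4 overlapped too, and the part of platelets and endothelium in Selp was not tested. Among 9 enzymes and carriers of selectin ligand glycosylation none changed by limma and 2 had an unadjusted p under 0.05. St3gal4, a sialyltransferase that completes selectin ligands, averaged 31.6 ± 2.52 RPKM (SD, n = 4) in the PBS and 50.1 ± 2.01 RPKM (SD, n = 3) in the MC-21 group, without overlap, and was 0.65 higher on the log2 scale (standard error 0.14, adjusted p = 0.0739 by limma). It changed after centring on the library medians. Tpst1, which sulfates tyrosines of proteins such as PSGL-1, differed by -0.74 on the log2 scale (adjusted p = 0.226 by limma), and Tpst2, the more abundant enzyme of the same kind at 110.5 and 106 RPKM in the groups, differed by -0.05.

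Among the other receptors, Ceacam1 differed by -0.57 on the log2 scale (adjusted p = 0.227 by limma) and the endothelial and leukocyte junction protein Pecam1, the partner of Cd177, had 159 to 218 RPKM in PBS neutrophils and 187 to 247 RPKM in MC-21 neutrophils. Esam, another junction protein, had 132 to 236 RPKM and 201 to 222 RPKM. The libraries also held endothelial marker RNA (sums of 1456 to 3078 RPKM in PBS and 1380 to 2582 RPKM in MC-21 neutrophils). Its part in Pecam1 and Esam was not tested. Of 17 genes of integrin activation, none changed by limma and 3 had an unadjusted p under 0.05, where Rasgrp2, the exchange factor that loads Rap1, differed by -0.83 on the log2 scale (standard error 0.27, adjusted p = 0.217) and Flna, which can hold integrins inactive, by -0.49 (adjusted p = 0.273). Apbb1ip, which links Rap1 to talin, had 124 RPKM in PBS and 132 RPKM in MC-21 neutrophils. Of 22 kinases and adaptors, none changed and 2 had an unadjusted p under 0.05: Parvb (log2 fold change -0.68, adjusted p = 0.172) and Parvg (-0.56, adjusted p = 0.307), both parvins that tie integrins to actin. Tyrobp (DAP12), an adaptor of integrin signalling, was the most abundant at 5085 and 6145 RPKM. Of 5 linkers and sheddases, which bind or cleave CD44 and other surface proteins, none changed by limma and 0 had an unadjusted p under 0.05. With the ordinary test no other adhesion gene passed after adjustment.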

How the data were processed

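Neutrophils of 7 livers were measured, 4 from PBS-treated and 3 from MC-21-treated mice, grouped by GEO's labels. The authors made 3′ libraries, sequenced them on a NextSeq, mapped reads to mm9 with HISAT 0.1.5, converted alignments with SAMtools and deposited RPKM values per gene from Partek Genomics Suite 6.6. The transcript annotation and lengths are not given in the sources used here. Of the 16047 genes, 269 were at 0 in every library. RPKM is not a count, so no count test was used. Depth was read from the steps of low RPKM values in genes with 1 transcript, and 77.8% of these fell within 0.1 read of a whole number.

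Differences were fitted with limma 3.58.1 (trend) in R 4.3.3 on log2(RPKM + 1), a scale that understates changes of low genes, for genes that averaged 1 RPKM or more, with Benjamini-Hochberg adjustment over all 9594. All tests were two-sided. Nothing in the labels says more of the replicates than 1 library per liver, so the p-values measure the spread between these livers. The members and lists were chosen with earlier results of these data known. The rule for naming picked all members and other adhesion genes with an adjusted p under 0.05. It also picked in each list the 2 smallest unadjusted p and the 2 highest means, and the 2 genes most like each member. Some genes picked from integrin activation, the kinases and adaptors, and the linkers and sheddases are given no values in the text. Of the other adhesion genes, 2 of 95 (Itga2, Itgb6) had no row. Marker lists of dendritic cells (9.07 to 12.4 RPKM summed in PBS and 6.09 to 12.0 in MC-21 neutrophils), Kupffer cells (56.3 to 84.4 and 34.3 to 64.4), hepatocytes (996 to 1324 and 1074 to 1167) and eosinophils and mast cells (10.4 to 19.5 and 8.82 to 15.8) had no changed gene. Results of 1 gene that the rule names are not reported here, and it stayed in the fit. The fit was tested on simulated data. Coordinates are those of an annotation of mm9. Tables were made with Python 3.11.15, pandas 2.3.3 and scipy 1.17.1. Alternatives were another pseudocount (0.1), other filters (none, or an average of 5 RPKM or more), quantile normalization and centring each library on its median. Further ones were no trend, ordinary two-sample tests on log2 and RPKM values, the study's cutoffs put on limma's values, and leaving out each library.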

Additional observations from a re-analysis of the deposited data

Results flagged for a closer look

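In the PBS group, which has 4 libraries, Dixon's ratio was computed for 34 genes, the 9 members and the other adhesion genes picked for naming. Of these, 2 had a library further out than the 95% critical value. Itgax was at 13.2 RPKM in PBS replicate 5, far below the other 3 PBS libraries (ratio 0.879). Adam10, a protease that sheds CD44, was at 3.13 RPKM in PBS replicate 6, far above the other PBS libraries (ratio 0.877). Chance alone gives such a library in about 5% of genes, so 2 of 34 is close to that share.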

How the results depend on the processing

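Of 134 values of the members under the alternatives, 127 kept their direction and their side of the threshold, 6 changed sign and 1 passed it. The changes of sign were those of Itga4 (0.10 with quantile normalization, 0.084 with centring, and -0.32 to 0.11 when 1 library was left out) and Itgb2 (0.0046 with centring). Itga4 has no value with a mean of at least 5 RPKM, which its level does not reach. The number of members that changed was 0, and 0 to 1 when 1 library was left out (Itgal, without PBS replicate 6). Itgal kept an unadjusted p under 0.05 in all alternatives, and Cd44 lost it with both ordinary tests and without PBS replicate 5, PBS replicate 8, MC-21 replicate 2 or MC-21 replicate 3. With centring, Itgam and Selplg also had an unadjusted p under 0.05, as did Selplg without PBS replicate 7.

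Over all genes, 60 changed, against 14 without a filter, 4 and 5 with the ordinary test on log2 and RPKM values, 259 with the study's cutoffs, and 9 (without PBS replicate 8) to 102 (without PBS replicate 6) when 1 library was left out. The split of lower against higher calls moved from 41 and 19 to 29 and 26 with quantile normalization and 30 and 44 with centring, 42 and 11 without a trend, and 12 and 2 without a filter. Among the other adhesion genes 2 changed, against 0 without a filter, 1 (Cd177) with quantile normalization, 0 without a trend, 0 with both ordinary tests, and 0 to 2 when 1 library was left out, and with centring St3gal4 and Cd177 did. The cause of these shifts in the counts was not tested. The median of log2(RPKM + 1) was 3.13 to 3.23 in PBS and 2.89 to 3.07 in MC-21 libraries, a difference of -0.16 (p = 0.0286 by an exact permutation test, two-sided, which is the least that 4 against 3 can give), and -0.20 to -0.11 when 1 library was left out, where p = 0.1 or 0.0667 are the smallest the exact test allows. With transcript length, 5 of 9 members kept their place in the order of levels. No paired analysis was possible because the groups share no replicate numbers. Depth limits Itga4 most.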
